A study of Mus musculus with 3 samples.

Results

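Hyaluronan genes were examined in mouse muscle stem cells (MuSC), with 9 genes listed for the synthesis, breakdown and binding of this polymer. The listed genes are the synthases Has1, Has2 and Has3, the hyaluronidases Hyal1 and Hyal2, the receptor Cd44, and Vcan, Tnfaip6 and Hapln1, which encode binding proteins. A member was read from probe sets that the platform annotation assigns to that gene alone, and 8 of the 9 had 22 such probe sets, out of 18193 genes and 45037 probe sets in all. Hyal1 had none, since both of its probe sets are shared with Naa80, which lies beside it between Hyal2 and Hyal3 on chromosome 9 in the RefSeq gene table, so no value is given for Hyal1. The 3 arrays, 1 for each condition, were hybridized with RNA of FACS-sorted MuSC from wildtype C57BL/6 mice 8 weeks of age, taken as CD34+ α7 integrin+ cells after enzyme digestion of muscle and removal of CD45+, CD11b+, CD31+ and Sca1+ cells. Fresh MuSC were not cultured, and their sample description also holds the word vehicle, whose meaning is not known here. MuSC −OSM were cultured for 3 days in 10% FBS. MuSC +OSM were cultured for 3 days in 10% FBS with 100 ng/mL Oncostatin M (OSM), a cytokine of the IL-6 family. The question was how culture and OSM move gene expression away from or toward that of freshly isolated cells. With 1 array per condition there is no replicate check and no test, and precision is limited by this number of arrays.

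Hyaluronan is a long sugar chain without a protein core. Synthases in the plasma membrane build it from activated forms of glucuronic acid and N-acetylglucosamine and extrude it from the cell, and hyaluronidases cut it. On the cell surface it is held by CD44, and in the matrix it carries versican (Vcan), whose binding is stabilized by link proteins such as Hapln1. The secreted protein TSG-6, encoded by Tnfaip6, transfers protein heavy chains onto the polymer. In skeletal muscle, hyaluronan is part of the matrix around fibers and satellite cells.

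Values are MAS5 signals, which the authors scaled to a common trimmed mean of 200 on every array. The median signal was 53 when fresh, 36 without OSM and 32 with OSM, and the 3′ to 5′ ratio of the β-actin controls, a sign of RNA integrity, was 2.35, 1.40 and 1.41 in this order. The median of all signals, 40, served as a floor. Lower signals were raised to it before a ratio was taken, folds against such signals are given as "at least", and genes were called measured where at least 1 array of a comparison exceeded the floor. Markers that define satellite cells were present in fresh MuSC, with Pax7 at 4006, 282 and 431 in fresh MuSC, MuSC −OSM and MuSC +OSM. Of 8 satellite cell markers, 8 were above the floor when fresh, 5 without OSM and 6 with OSM, with summed signals of 34183, 3781 and 4786. For 5 markers of myogenic differentiation the sums were 3902, 47398 and 27916 in the same order. Of the genes for the proteins used in sorting, Cd34 had 2222, 34 and 15, whereas Itga7 was lowest when fresh, at 499, 1808 and 1238. Between probe sets of the same gene, the log2 ratio of MuSC +OSM to MuSC −OSM differed by a median of 0.34 and a 90th percentile of 0.92 over 5169 genes, and that of fresh MuSC to MuSC −OSM by 0.51 and 1.54 over 5900 genes. These values give the spread between probe sets, not between cultures or arrays.

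The listed genes showed patterns of 3 kinds. Has1 and Tnfaip6 exceeded the floor only when fresh. Has2 was above it in MuSC +OSM only, and Vcan was several-fold higher there than on the other arrays. Hyal2 and Cd44 were above the floor on all arrays and lowest in fresh MuSC. Has3, with signals of 2, 12 and 9 in fresh MuSC, MuSC −OSM and MuSC +OSM, and the 4 probe sets of Hapln1, none of which passed 35, stayed under the floor throughout and are not ranked.

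**Figure D1:**
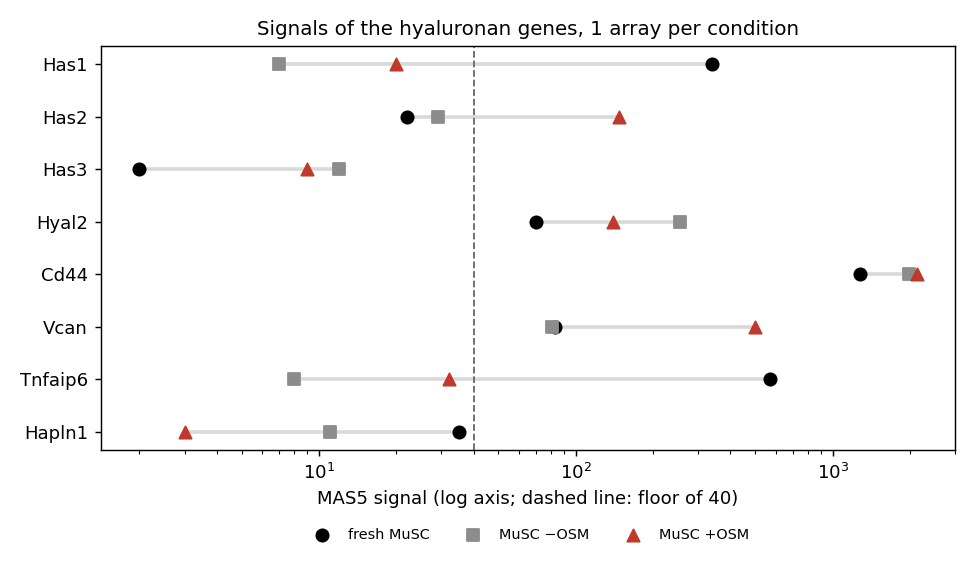
Signals (MAS5, log axis) of the 8 listed genes with a probe set of their own, read from the probe set of highest mean signal, with 1 array each for fresh MuSC (black circles), cells without OSM (gray squares) and cells with OSM (red triangles). Has1 and Tnfaip6 lie right of the dashed floor of 40 in fresh MuSC alone, at 338 and 573, and Has2 in MuSC +OSM alone, at 148.

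The genes that were high in fresh MuSC come first. Tnfaip6 had a signal of 573 when fresh, 8 without OSM and 32 with OSM. Fresh MuSC thus exceeded either culture at least 14.3-fold. Has1, the synthase of least activity in cell assays and one that inflammatory signals induce, had 338, 7 and 20 in the same order, so that fresh MuSC exceeded either culture at least 8.45-fold. Among 12755 genes measured in fresh MuSC over MuSC −OSM, these floored ratios ranked 163 for Tnfaip6 and 328 for Has1. The cultures had both genes under the floor, so whether OSM changed either one was not measurable here. Each rests on a single probe set.

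The stretch before the transcription start of both genes is shown because they shared the fresh-only pattern. The sequences are from RefSeq, build GRCm38.p6, with the 250 bases before the start written 5′ to 3′ and matches to searched motifs in capitals.
Tnfaip6, chr2:52037863-52038112, strand +: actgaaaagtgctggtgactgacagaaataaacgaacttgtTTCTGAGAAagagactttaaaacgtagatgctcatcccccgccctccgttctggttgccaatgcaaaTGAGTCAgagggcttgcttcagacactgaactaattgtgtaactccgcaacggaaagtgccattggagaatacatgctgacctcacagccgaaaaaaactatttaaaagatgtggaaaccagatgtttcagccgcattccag
Has1, chr17:17855189-17855438, strand −: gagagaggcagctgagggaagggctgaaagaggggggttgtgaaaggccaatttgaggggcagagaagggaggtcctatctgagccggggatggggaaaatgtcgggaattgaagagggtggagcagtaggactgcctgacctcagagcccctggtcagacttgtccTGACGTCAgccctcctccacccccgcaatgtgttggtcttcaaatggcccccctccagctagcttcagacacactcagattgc
Motifs searched on both strands were TGANTCA for AP-1, TGACGTCA for the cyclic AMP response element (CRE), TTCNNNGAA for STAT factors and TATAAA for the TATA box. In Tnfaip6 the STAT letters start 209 bases and the AP-1 letters 142 bases before the transcription start, and they do not overlap. In Has1 the CRE letters start 83 bases before it. Of 32851 promoters of this length, 6.75% hold the AP-1 letters, 1.55% the CRE letters, 7.02% the STAT letters and 12.4% the TATA letters. The table holds promoters of 7 listed genes, and the other 5, those of Cd44, Hyal1, Hyal2, Hapln1 and Vcan, had no match to any of the 4 motifs in this window. These matches describe the letters and are not evidence of binding.

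In fresh MuSC over MuSC −OSM, 5 listed genes were measured, of which 2 (Has1 and Tnfaip6) were at least 2-fold higher and 1 (Hyal2) was at least 2-fold lower. Over all measured genes, 20.4% were at least 2-fold higher and 15.0% lower, so counts this small do not set the listed genes apart. Has1 and Tnfaip6 were measured only through the array on which they are high. Several lists of markers of other cells had higher sums in fresh MuSC. For 3 Schwann cell markers with a probe set the sums were 4287, 104 and 211 in fresh MuSC, MuSC −OSM and MuSC +OSM. All 9 fibroblast markers with a probe set were above the floor in fresh MuSC and their summed signal was 34777, against 4 markers and 1203 in MuSC −OSM and 7 markers and 2958 in MuSC +OSM. For 5 tenocyte markers the sums were 11219, 543 and 666, although 1 of them, Scx, was lowest when fresh, at 48, 327 and 104. The sum of 5 pericyte and smooth muscle markers went the other way, at 9554, 19610 and 14243. Most of it came from Acta2, at 6543, 19053 and 13114. Taken singly, 3 of the 5 passed 2-fold upward for fresh MuSC over MuSC −OSM, 1 (Acta2) downward, and 1 lay within 2-fold. The upward ones were Rgs5, at 1687, 35 and 59, Myh11, at 301, 2 and 1, and Pdgfrb, at 661, 139 and 738. The leukocyte marker Ptprc and the endothelial marker Pecam1, against whose proteins the cells were sorted, had signals of at most 7 and 4 on any array, although Lyz2, another leukocyte marker, had 1204 in fresh MuSC and 13 in each culture, and Tek and Cdh5, of endothelium, had 791 and 268 in fresh MuSC. These markers were picked out after their values were seen, and over the whole lists 3 of 8 leukocyte and 4 of 5 endothelial markers were above the floor in fresh MuSC, with summed signals of 1383 and 1176, against 248 and 96 in MuSC −OSM and 241 and 93 in MuSC +OSM. What other cells, or the enzyme digestion and sorting before the array, add to Has1 and Tnfaip6 was not tested. In RNA of bulk cells, a change in the number of cells that express a gene cannot be told apart from a change in RNA per cell.

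Among the genes that were high with OSM, Vcan, a large proteoglycan that binds hyaluronan through its amino-terminal link modules, had a signal of 83 when fresh, 81 without OSM and 497 with OSM. It was thus 6.14-fold higher in MuSC +OSM than in MuSC −OSM and 5.99-fold higher than in fresh MuSC, while fresh MuSC and MuSC −OSM differed 1.02-fold. Of its 8 probe sets, 5 stayed under the floor on every array and the other 2 went the same way as the main one. One of these had 55, 25 and 213, at least 5.33-fold higher with OSM than without, and the other had 7, 13 and 92, at least 2.30-fold higher. The rank of Vcan was 62 among 11271 genes measured in MuSC +OSM over MuSC −OSM.

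Has2, the main synthase of long hyaluronan chains in embryos and in many mesenchymal cells, had signals of 22 when fresh, 29 without OSM and 148 with OSM. The level in MuSC +OSM was at least 3.70-fold higher than on either of the other arrays, a floored ratio of rank 154 among the 11271 genes. Its second probe set had 24, 36 and 82 and was at least 2.05-fold higher with OSM. Both probe sets were above the floor on 1 array only, so their log2 ratios of 1.89 and 1.04 are lower bounds. With a floor of 80 the ratio of Has2 was below 2-fold, at 0.89 on the log2 scale.

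Hyal2, a hyaluronidase anchored at the cell surface, ran in another order. Its signal was 70 when fresh, 254 without OSM and 140 with OSM. Fresh MuSC were 3.63-fold below MuSC −OSM. With OSM it was 1.81-fold lower than without, which is within 2-fold and within the 90th percentile of the spread between probe sets, and it was 2.00-fold above fresh MuSC, at the threshold itself. The gene has 1 probe set, so no second reading was to be had.

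Cd44, the main hyaluronan receptor, differed least among the arrays. Its signals were 1283 when fresh, 1986 without OSM and 2125 with OSM. The log2 ratio of MuSC +OSM to MuSC −OSM was 0.10, and 2 other probe sets above the floor gave -0.19 and 0.60, so its direction differed between probe sets. In fresh MuSC over MuSC −OSM all 3 gave lower signals, with log2 ratios of -0.63, -0.88 and -0.39. The fourth probe set had signals of at most 3.

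**Figure D2:**
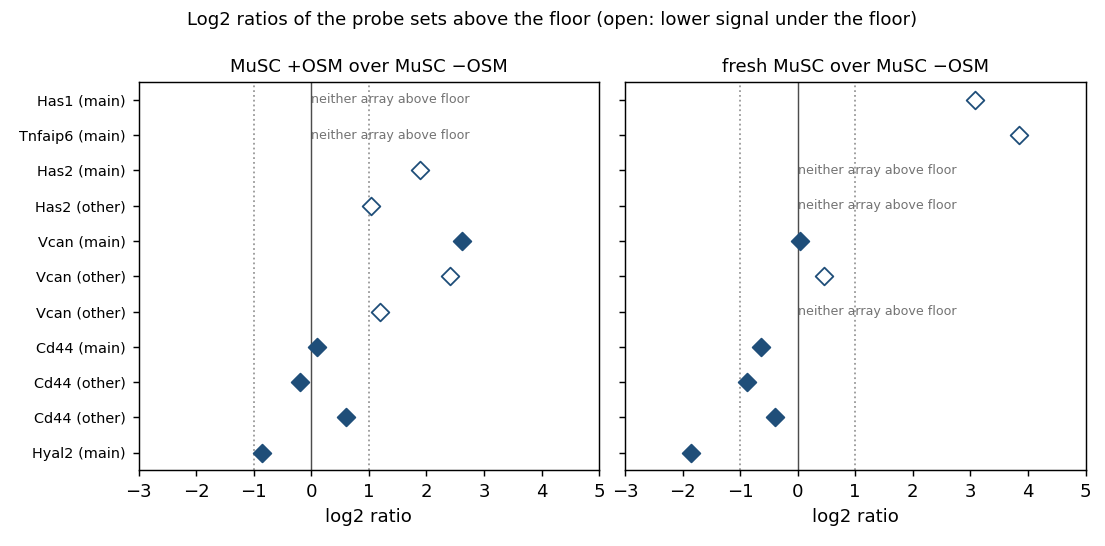
Log2 ratios of the 11 probe sets above the floor on at least 1 array, for MuSC +OSM over MuSC −OSM on the left and fresh MuSC over MuSC −OSM on the right, with open diamonds where the lower signal was under the floor and dotted lines at 2-fold. The probe sets of Has2 and Vcan lie between 1.04 and 2.62 on the left, and Has1 and Tnfaip6 lie at 3.08 and 3.84 on the right.

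In MuSC +OSM over MuSC −OSM, 4 listed genes were measured, of which 2 were at least 2-fold higher, 0 were lower and 2 lay within 2-fold, while 6.07% of all measured genes were at least 2-fold higher and 4.39% lower. Has2 was measured only through the array on which it is high. Markers of fibroblasts moved in the same comparison, with 3 of 7 measured at least 2-fold higher with OSM and 0 lower. Dcn had 32 without OSM and 373 with it, Col1a1 had 53 and 164, and Col1a2 had 925 and 2123. Of the pericyte and smooth muscle markers, Pdgfrb had 139 and 738 and the other 3 measured were within 2-fold. These markers too are named after their values were seen. The part of such cells in the levels of Has2 and Vcan was not tested. The median log2 ratio of the 4 listed genes was 0.99, midway between Cd44 at 0.10 and the floored 1.89 of Has2, against -0.01 for all genes. The same medians were 0.04 for the 5 genes and 0.14 for all genes when fresh MuSC were set over MuSC −OSM. In MuSC +OSM over fresh MuSC, 3 of 6 measured genes were at least 2-fold higher and 2 lower (13.8% and 17.2% of all measured genes, 31.0% together), with medians of 0.86 and -0.14. Has1, Tnfaip6 and Has2 were measured there only through the array on which each is high, and Hyal2 was at the threshold itself, so these counts do not set the listed genes apart. All of these comparisons share arrays with each other. With every array centred on its median signal, the share of higher genes among all those past 2-fold went from 58.0% to 72.0% for MuSC +OSM over MuSC −OSM, from 57.6% to 29.8% for fresh MuSC over MuSC −OSM and from 44.5% to 80.4% for MuSC +OSM over fresh MuSC. After quantile normalization these shares were 54.2%, 46.6% and 54.8%. Ratios of Has1, Has2, Vcan, Tnfaip6 and Hyal2 that were past 2-fold kept their direction and stayed past 2-fold under both scalings, while Vcan in fresh MuSC over MuSC −OSM, at 0.04, was at -0.52 with the arrays centred.

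**Figure D3:**
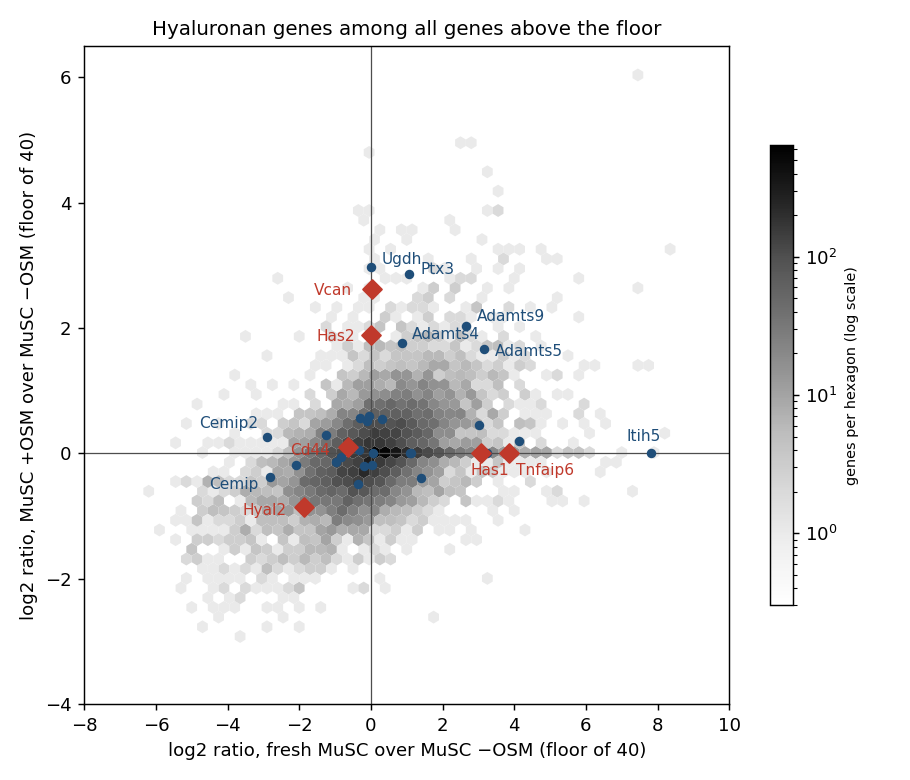
Log2 ratio of fresh MuSC to MuSC −OSM on the horizontal axis and of MuSC +OSM to MuSC −OSM on the vertical axis, after the floor of 40, for listed genes (red diamonds), genes of 6 related lists (blue circles) and all genes above the floor on at least 1 array (gray hexagons, shaded by gene count). Vcan and Has2 lie near 0 on the horizontal axis and at 2.62 and 1.89 on the vertical one, Has1 and Tnfaip6 at 3.08 and 3.84 on the horizontal axis, and 0 on an axis also stands for both signals under the floor.

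Genes that supply or modify hyaluronan were read from 6 further lists with 45 genes, 43 of them with a probe set of their own. In MuSC +OSM over MuSC −OSM, 22 were measured, with 5 past 2-fold upward, 0 downward and a median of 0.28 on the log2 scale, beside 6.07% upward, 4.39% downward and a median of -0.01 for all measured genes. For fresh MuSC over MuSC −OSM the list gave 28 measured genes, 11 past 2-fold upward, 4 downward and a median of 0.05, beside 20.4%, 15.0% and 0.14 for all measured genes. Acan, Adamts15, Gfpt2, Itih2, Itih5 and Stab2 counted as measured there only through the fresh array, and all of them but Acan were among the 11 upward. With the arrays centred, Uap1, Stab2, Itih2 and Ptx3 were no longer past 2-fold upward in fresh MuSC over MuSC −OSM. Habp4, Rdx and Msn were then past it downward, so these counts depend on the scaling. Habp4, Itih2 and Stab2 are named after their values were seen. The 5 genes higher with OSM were Ugdh, Ptx3, Adamts4, Adamts5 and Adamts9.

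Among 7 enzymes that make the sugar precursors, 6 were measured in MuSC +OSM over MuSC −OSM. Of these, 1 was at least 2-fold higher and 0 were lower, beside 6.07% and 4.39% of all measured genes. The higher one was Ugdh, the dehydrogenase that makes UDP-glucuronic acid, which had signals of 719 when fresh, 719 without OSM and 5634 with OSM. It was 7.84-fold higher in MuSC +OSM than on either of the other arrays and had rank 36 among the 11271 genes, on 1 probe set. UDP-glucuronic acid also feeds the synthesis of other glycosaminoglycans and glucuronidation. Ugp2, which makes UDP-glucose one step earlier, had 1006, 2376 and 2914, and its 5 probe sets all gave a higher signal in the cultures than in fresh MuSC. The enzymes of the N-acetylglucosamine branch did not share a pattern. Uap1, which makes UDP-N-acetylglucosamine, had 1704, 648 and 492 and fresh MuSC exceeded MuSC −OSM 2.63-fold, though this was below 2-fold (0.84 on the log2 scale) with the arrays centred. Gfpt2, which with Gfpt1 catalyzes entry into that branch, had 379, 40 and 40. Gfpt1 had 490, 530 and 757, Gnpnat1 had 233, 289 and 428, and Pgm3 had 235, 191 and 281 on their main probe sets. All were within 2-fold in these comparisons and 0.51 to 0.57 higher on the log2 scale with OSM than without. Other probe sets above the floor gave less, at -0.06 for Gfpt1 and 0.29 and 0.14 for Gnpnat1. With the arrays centred, Gfpt1 and Gnpnat1 were past 2-fold higher in MuSC +OSM than in fresh MuSC, at 1.36 and 1.61 on the log2 scale. Gfpt1, Gfpt2, Gnpnat1 and Pgm3 are named after their values were seen.

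Partners of TSG-6 differed between conditions too. Ptx3, a pentraxin that binds TSG-6 and the heavy chains, had signals of 162 when fresh, 77 without OSM and 562 with OSM, and was 7.30-fold higher with OSM than without. Its second probe set, at 57, 13 and 19, was under the floor in both cultures, so the OSM ratio rests on 1 probe set. Itih5, a member of the heavy chain family, had 9074, 25 and 36, so that fresh MuSC exceeded MuSC −OSM at least 227-fold, with 2 other probe sets at 2721 and 2740 in fresh MuSC and at most 18 in the cultures. Its rank of 3 among 12755 genes was the highest of any gene on the lists of genes that supply or modify hyaluronan. The other 5 genes of this list were under the floor in both cultures.

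Of 5 proteases that cleave versican, 4 were measured with OSM over without, and 3 of these were higher by 2-fold or more and 0 lower (6.07% and 4.39% of all measured genes). When fresh, 4 of 5 were higher than without OSM (20.4% of all measured genes), among them Adamts15, at 332, 24 and 1, which was measured only through the fresh array and is named after its values were seen. Adamts4 had 557 when fresh, 308 without OSM and 1049 with OSM, and was 3.41-fold higher with OSM. Adamts5 had 1329, 150 and 477, and Adamts9 had 415, 66 and 270, so these were 3.18-fold and 4.09-fold higher with OSM and highest in fresh MuSC, although with the arrays centred Adamts9 was 0.11 higher on the log2 scale in MuSC +OSM than in fresh MuSC. The other probe sets of Adamts5 above the floor gave smaller log2 ratios with OSM, of 0.64 and 0.51. Adamts1 had 5138, 293 and 338, a level 17.5-fold higher when fresh than without OSM and 1.15-fold higher with OSM than without.

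Among 4 measured breakdown genes outside the list, 0 were past 2-fold with OSM over without (6.07% of all measured genes were higher and 4.39% lower), and 2 were past 2-fold lower when fresh than without OSM (15.0% of all measured genes). Cemip2, a cell-surface protein linked to hyaluronan breakdown, had 88 when fresh, 653 without OSM and 787 with OSM. Cemip, needed for hyaluronan depolymerization in fibroblasts, had 11, 279 and 216 on its main probe set. Its other probe sets had at most 34 on any array, under the floor. Its difference between fresh MuSC and the cultures thus rests on the main probe set, and its size is a lower bound. Cemip, Cemip2 and Gusb are named after their values were seen, and Hyal2, with 70, 254 and 140, was likewise lowest in fresh MuSC. Hexa, a lysosomal enzyme of the last steps of breakdown, had 1136, 1110 and 976, and Gusb, the lysosomal β-glucuronidase, had 328, 340 and 512. By these signals neither differed by 2-fold between any of the arrays. With the arrays centred, however, Gusb was 1.37 higher on the log2 scale in MuSC +OSM than in fresh MuSC.

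**Figure D4:**
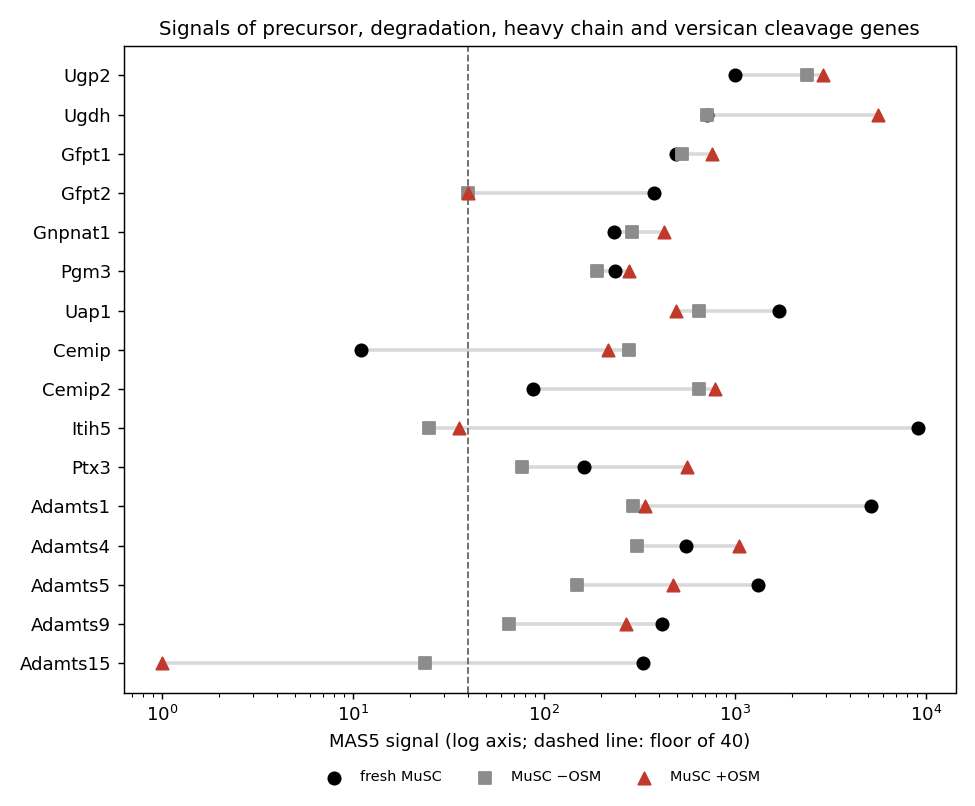
MAS5 signal, on a log axis with a dashed line at the floor of 40, of 16 genes that supply hyaluronan precursors, break it down, carry heavy chains or cleave versican, with 1 array each for fresh MuSC (black circles), cells without OSM (gray squares) and cells with OSM (red triangles). Ugdh lies at 719 without OSM and 5634 with it, and Itih5 at 9074 in fresh MuSC and at most 36 in the cultures.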

How the data were processed

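RNA of FACS-sorted MuSC was amplified with 3′ IVT Express reagents and hybridized to Affymetrix MOE_430_2 arrays. The authors deposited MAS5 signal intensity on a linear scale, 1 array per condition, with a MAS5 version not given in the sources used here. This array design samples mostly the 3′ end of transcripts, and low MAS5 signals are noisy, so a floor of 40 was applied.

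Python 3.11.15, scipy 1.17.1, numpy 2.4.6 and pandas 2.3.3 gave the ratios. The 64 control probe sets were left out. Of the rest, 34945 named 1 gene, 932 several and 9160 none, and 34741 were found in RefSeq by identifier, which altered 0 symbols. Each gene was represented by its probe set with the highest mean and was called higher or lower at 2-fold. The steps were tested on simulated data with changes only in genes well above the floor, so the recovery of floored ratios was not covered. Alternatives were the scaling, the floor, the probe set and the threshold.

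The members and lists were chosen with earlier results of these data known, and the motifs with the sequences in view. Named from the other lists were genes past 2-fold with OSM or with a signal of at least 1000. For the 2 members with the largest ratios in MuSC +OSM and in fresh MuSC, each over MuSC −OSM, the 3 genes nearest in pattern were sought where a signal reached 200. Any other gene named, the markers of cell types among them, is to be taken as chosen with its values known, also where no mark is given. Where an alternative moved a log2 ratio by under 1.5-fold and kept it on its side of 2-fold, it was taken as unchanged.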

Additional observations from a re-analysis of the deposited data

How the results depend on the processing

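No paired analysis was possible because each condition had 1 array, and no array could be left out. No listed gene past 2-fold changed direction under 6 other choices of scaling, floor and probe set, or under the mean over probe sets above the floor, which was chosen after seeing the data. Of 105 log2 ratios of single listed genes under these choices, 87 stayed within 1.5-fold and on their side of 2-fold. Part of these could not move, so the share is no measure of stability. The probe set of highest signal on any array was the main one for every measured listed gene. Has1, Hyal2 and Tnfaip6 have 1 probe set each, and the signals of Cd44 lie far above every floor. The count of genes at least 2-fold higher in MuSC +OSM over MuSC −OSM, 2, was 1 with a floor of 80, where Has2 was at 0.89, and 1 with the mean over all probe sets, where the 5 probe sets of Vcan under the floor brought its log2 ratio from 2.62 to 0.78. With the mean over probe sets above the floor it was 2.08. In MuSC +OSM over fresh MuSC the count of 3 was 1 with a floor of 80. The count at least 2-fold lower in fresh MuSC over MuSC −OSM, 1, was 2 with the arrays centred on their medians, since Cd44 moved to -1.19, and 2 at a threshold of 1.5-fold. In MuSC +OSM over MuSC −OSM the count of lower genes, 0, was 1 at 1.5-fold. The median log2 ratio of listed genes in this comparison was 0.99, 1.24 after centring and 1.06 after quantile normalization, but 0.68 with a floor of 20, 0.49 with a floor of 80, 0.45 with the mean over all probe sets and 0.82 with the mean over those above the floor, and in MuSC +OSM over fresh MuSC it was 0.86 and 1.59 after centring. Centring moved the median of all genes from -0.01 to 0.15, from 0.14 to -0.37 and from -0.14 to 0.58 in the comparisons of MuSC +OSM with MuSC −OSM, fresh MuSC with MuSC −OSM and MuSC +OSM with fresh MuSC, and Cd44 in fresh MuSC is to be read against the -0.37. For Has1, Has2 and Tnfaip6 the size of the fold follows from the floor and is a lower bound only.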

Other observations

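Among genes for proteins that join CD44 to the actin cytoskeleton, read from their main probe sets, 0 of 3 measured were past 2-fold with OSM (6.07% of all measured genes were higher and 4.39% lower), with Rdx (radixin) at 2065 when fresh, 2598 without OSM and 2687 with OSM, and Msn (moesin) at 1935, 3830 and 3467. Ezr (ezrin), named after its values were seen, had 394, 49 and 67 on its main probe set, but 32, 182 and 59 on the other, so its direction differed between probe sets in fresh MuSC over MuSC −OSM and also with OSM over without, where the log2 ratio was 0.45 on the main probe set and -1.63, past 2-fold lower, on the other. Of 14 other hyaluronan-binding genes, 4 were measured in MuSC +OSM over MuSC −OSM. Past 2-fold were 0 of these, beside 6.07% higher and 4.39% lower of all measured genes. C1qbp had 5896, 7517 and 5355. Hmmr, a hyaluronan receptor that also acts at the mitotic spindle, had 52, 221 and 195 on its main probe set and is named after its values were seen. In fresh MuSC over MuSC −OSM its log2 ratio was -2.09 there, but -0.09, -1.32 and -0.32 on its other probe sets above the floor. The proteoglycans Acan, Bcan and Ncan, relatives of Vcan that are named after their values were seen, had signals of at most 46 on any array, against which their floored ratios carry no reading.

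Genes nearest in pattern to a listed gene were sought over the 3 arrays among 7802 genes, by the distance between floored log2 signals centred on each gene's mean. For Has2 these were B4galt1, at 151 when fresh, 149 without OSM and 553 with OSM (distance 0.01), Nrp1 (0.03) and Tmtc4 (0.11). For Vcan they were Aldh1a2 (0.16), Slc41a2 (0.18) and Myzap (0.24). For Tnfaip6 they were Jade2, Meox2 and Plekhb1, and for Has1 Tmem51, C2 and the versican protease gene Adamts15, at 332, 24 and 1. Among the listed genes, Has2 and Vcan were nearest each other (0.58), followed by Has1 and Tnfaip6 (0.62). With 3 arrays and a floor such distances are a description, and many genes share each pattern.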
